A study of Saccharomyces cerevisiae with 39 samples.

Results

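The genes described here encode the NDC80 and MIND complexes of the budding yeast kinetochore together with 2 proteins of centromeric chromatin. They were taken by name from the deposited expression table, 10 genes of 6186 features: NDC80 (YIL144W), NUF2 (YOL069W), SPC24 (YMR117C) and SPC25 (YER018C) of the NDC80 complex, MTW1 (YAL034W-A), NNF1 (YJR112W), NSL1 (YPL233W) and DSN1 (YIR010W) of the MIND complex, and CSE4 (YKL049C) and MIF2 (YKL089W). All 10 passed the filter on low counts. Poly(A) RNA of diploid Saccharomyces cerevisiae was sequenced in 39 libraries, 3 from each of 13 strains. Every culture was moved to sporulation medium and received 50 µM copper sulphate 3 h later, and the labels do not give the time of collection. The series title concerns a disordered protein region and mRNA turnover that depends on N6-methyladenosine (m6A), the mark that the YTH-domain protein Pho92 binds.

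All strains are MATa/alpha with ho::LYS2, lys2 and ura3 and with hisG insertions in leu2, his3 and trp1. WT carries PHO92 in place and pho92_null carries pho92::HYG. The other 11 strains lack the endogenous gene (hyg::pho92) and hold an HA-tagged PHO92 at trp1 behind the CUP1 promoter, which copper induces. CUP1_WT has the unchanged protein there. W177A, W5A, W18A and W5A_W18A have tryptophan-to-alanine substitutions, W177A being in the YTH domain. Residues 1 to 70 are missing in del1_70, 28 to 52 in del28_52, 110 to 155 in del110_155, and 28 to 52 with 130 to 155 in del28_52_130_155. W5A_W18A_del28_52 joins both substitutions with the deletion of 28 to 52. The titles of the last strain, W5A_W18A_del28_52_110_155, name both substitutions and 2 deletions, but its genotype lists the deletions alone, so its substitutions are not settled by the labels. An early meiotic arrest is mentioned under growth conditions, and degron strains under library preparation, but the genotypes list no allele for either.

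The kinetochore joins each centromere to spindle microtubules. Cse4, a histone H3 variant, marks the centromere, and Mif2, the yeast CENP-C, binds that nucleosome and recruits the MIND complex, which in turn holds the NDC80 complex, whose Ndc80 and Nuf2 subunits contact the microtubule. In meiotic prophase budding yeast takes its outer kinetochore apart and also makes a longer NDC80 mRNA from an upstream promoter, which is poorly translated into Ndc80 protein, and the transcription factor Ndt80 later switches on the middle meiotic genes through the middle sporulation element. A count per gene, as used here, does not separate the longer from the shorter NDC80 mRNA.

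The sequences of 3 promoters are shown because NDC80, MTW1 and DSN1 gave 3 different patterns over the strains and each holds CACAAA, the core of the middle sporulation element, within 250 bases before the start codon. Capitals mark that core, or TTTGTG where it lies on the other strand. In MTW1 they also mark the MCB element of genes transcribed around DNA replication (ACGCGT). In DSN1 they also mark the core of URS1, an element of early meiotic genes (GGCGGC, here as its complement). Sequences are from RefSeq, assembly R64, 5′ to 3′ on the gene's strand, which is the plus strand for all 3, from 250 bases before the start codon through its first 50 coding bases. The build behind the counts is not given in the sources used here, so these positions are those of R64 alone, and the letters in the strains used may differ.
NDC80 (chrIX:77824-78123): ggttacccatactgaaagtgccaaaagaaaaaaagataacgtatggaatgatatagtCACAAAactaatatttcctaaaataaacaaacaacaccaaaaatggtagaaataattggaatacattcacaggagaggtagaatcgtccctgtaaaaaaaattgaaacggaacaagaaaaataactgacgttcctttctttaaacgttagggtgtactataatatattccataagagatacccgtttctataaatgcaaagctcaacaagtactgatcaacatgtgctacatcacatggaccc
MTW1 (chrI:79468-79767): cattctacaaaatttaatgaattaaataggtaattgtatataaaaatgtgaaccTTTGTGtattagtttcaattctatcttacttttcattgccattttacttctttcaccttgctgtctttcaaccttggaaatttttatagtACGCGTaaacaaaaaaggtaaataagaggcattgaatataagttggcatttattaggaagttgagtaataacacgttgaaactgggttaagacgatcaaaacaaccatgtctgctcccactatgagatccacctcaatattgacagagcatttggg
DSN1 (chrIX:375181-375480): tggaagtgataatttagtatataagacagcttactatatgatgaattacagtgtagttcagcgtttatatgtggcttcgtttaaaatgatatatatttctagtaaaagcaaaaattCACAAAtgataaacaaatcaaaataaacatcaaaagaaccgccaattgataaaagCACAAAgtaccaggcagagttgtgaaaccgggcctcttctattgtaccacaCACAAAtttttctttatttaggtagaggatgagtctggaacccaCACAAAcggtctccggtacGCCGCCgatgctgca

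Searched on both strands of these 300-base windows, CACAAA was found in 4 of the 10 genes (DSN1, MTW1, NDC80 and SPC24) and in 18.8% of 6001 genes of the assembly. The matches lie 193 bases before the start in NDC80, 196 before it in MTW1, and 134, 79 and 28 before it in DSN1, with 1 more in the coding bases of DSN1. The SPC24 match also lies in its coding bases. GGCGGC was found in DSN1 alone among the 10, within its coding bases, and in 5.13% of genes. ACGCGT was found in MTW1 and MIF2, against 3.07% of genes. CGCGAAA, 1 form of the SCB element and the only form searched, was found in SPC24 and CSE4, against 3.60%. No match overlapped another. None of the 10 genes has an intron or overlaps another annotated gene in R64.

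Total counts per library were 15928411 to 37186964 (median 20694394). The lowest count of any of the 10 genes in a library was 275 (NSL1). PHO92 had 20, 45 and 2 counts in the pho92_null libraries, 938 ± 127 counts per 1000000 (CPM, after scaling of the library sizes; SD, n = 3) in WT and 9746 ± 1519 CPM in CUP1_WT. In the other strains with the CUP1 promoter its mean was 5543 to 10699.6 CPM, except for W5A (14790 ± 659) and W5A_W18A (14852 ± 1959), and the part of these levels in the results below was not tested. Chi-square per degree of freedom was 12.3 to 540 over the 39 pairs of replicate libraries, so none was a duplicate of another within counting error. The labels do not say that replicate libraries come from separate cultures, so p-values measure the spread between these libraries. In RNA from whole cultures, fewer cells of a kind and less RNA per cell cannot be told apart. One library stood apart: del110_155 replicate 3 differed from its strain mates by a median of 0.41 (absolute log2), the greatest of the 39. Its 10 early meiotic genes summed to 4581 CPM, against a median of 19475 over all libraries, and its 10 middle meiotic genes to 138 CPM, against 5113. It had the lowest level of all libraries for 7 of the 10 kinetochore genes and the highest for NSL1 and MIF2, and results that rest on it are given with and without it.

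NDC80 was the most abundant of the 10 mRNAs. Its median over the 39 libraries was 760.0 CPM, and the medians of the other 9 genes ran from 20.1 CPM (NSL1) to 84.1 CPM (DSN1). Per kilobase of coding sequence NDC80 stood at 366 CPM, 14.0 times NUF2, its partner in the microtubule-binding dimer, which had 26.1 CPM per kilobase. On the same per-kilobase scale CSE4 had 107 CPM, SPC25 74.2, NNF1 55.4, SPC24 54.5, DSN1 48.6, MTW1 47.2, NSL1 30.9 and MIF2 23.0. The strains moved these levels far less than the gap between NDC80 and NUF2: the ratio of the highest to the lowest strain mean was 2.30 for DSN1, 2.06 for NDC80, 2.04 for SPC25 and 1.37 to 1.69 for the other 7.

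**Figure D1:**
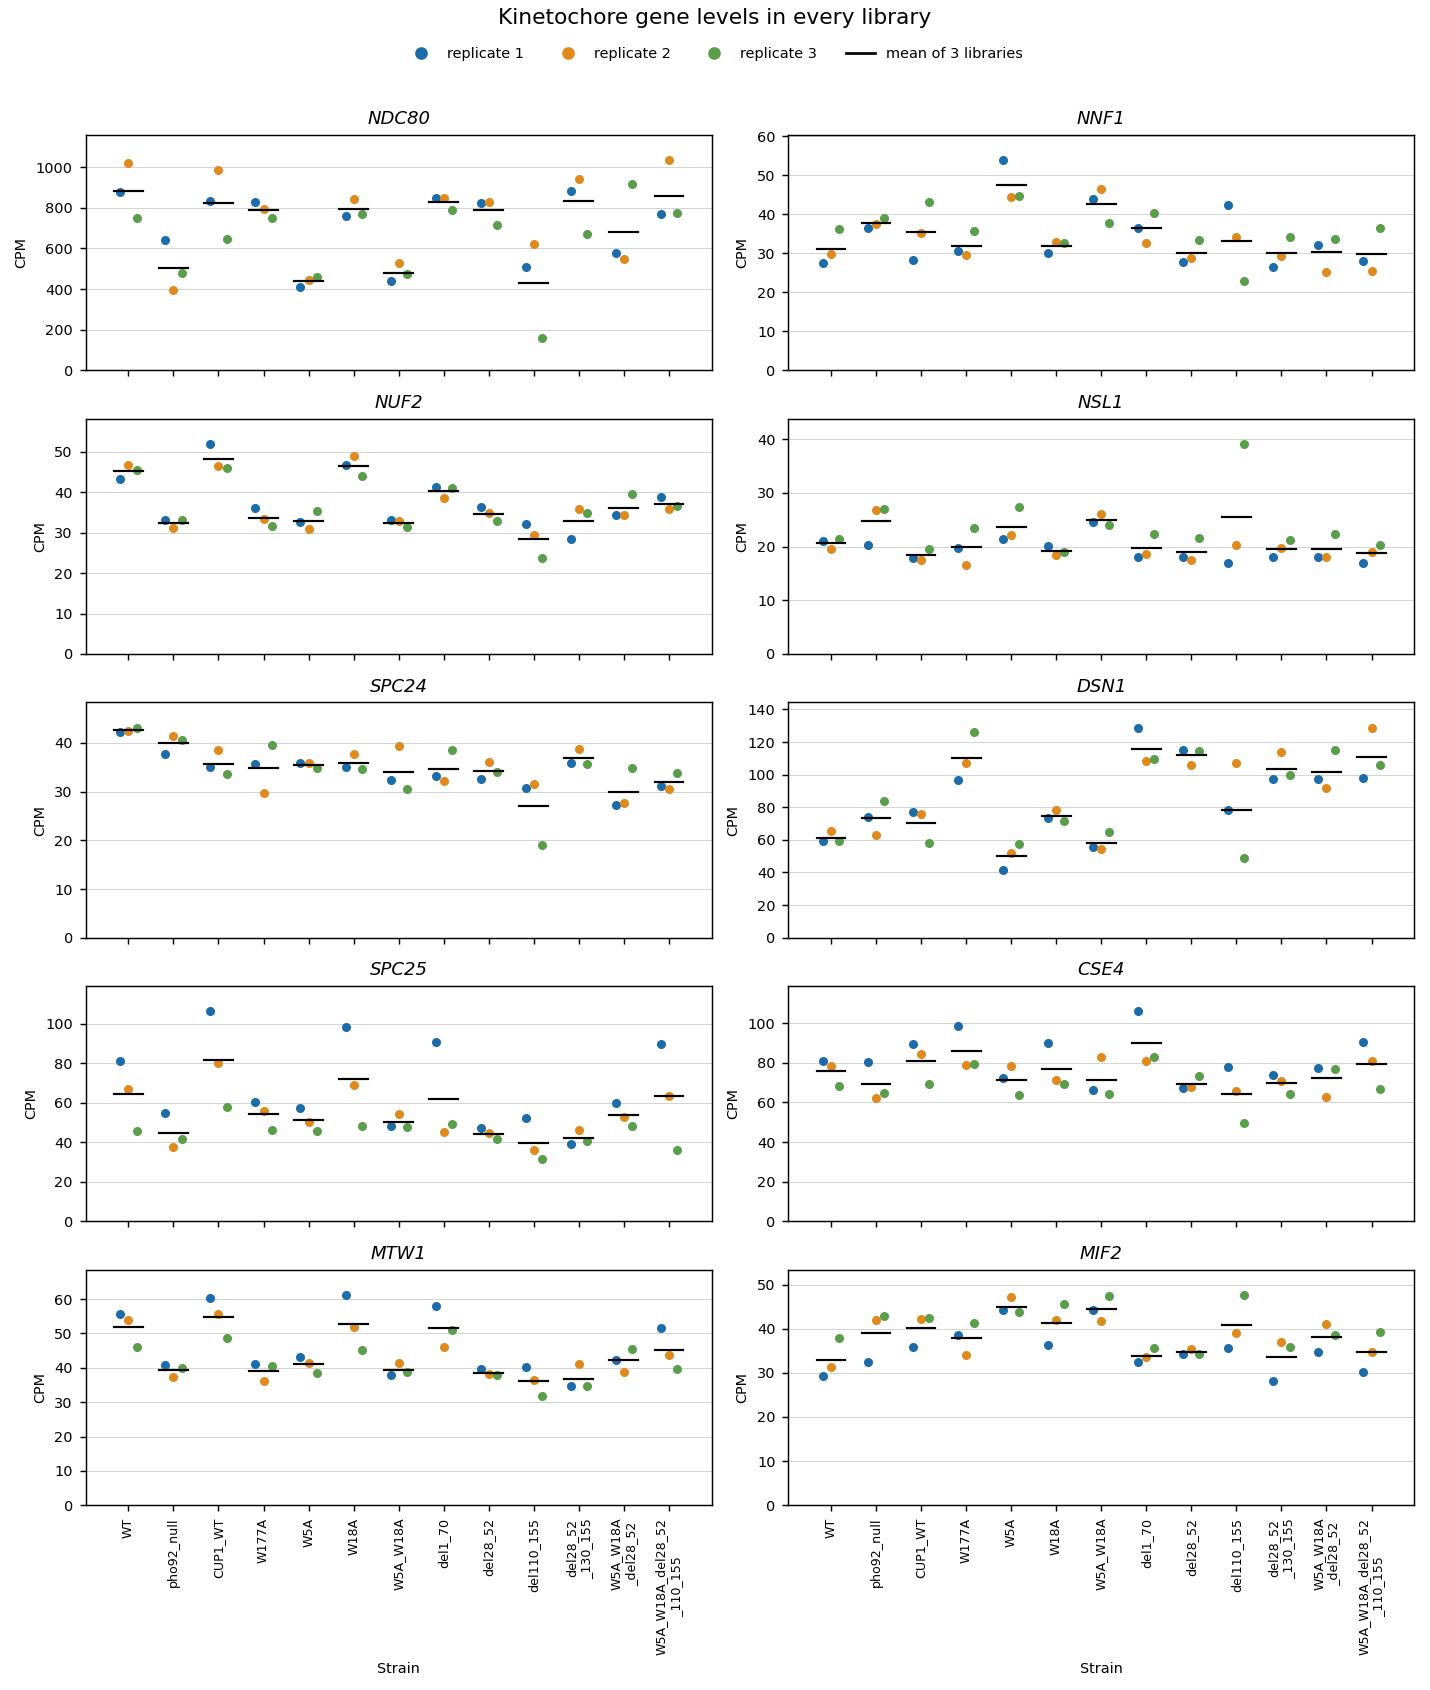
Level of each of the 10 genes (vertical axes, CPM, from 0) in the 3 libraries of each of the 13 strains (horizontal axes). Points are libraries, coloured by replicate number, and black bars are strain means. NDC80 lies at 157 to 1035 CPM and the other genes at 16.6 to 129 CPM, and del110_155 replicate 3 is the lowest NDC80 point.

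A moderated F-test in limma over the 13 strains, with p-values adjusted by the Benjamini-Hochberg method over all features, called 7 of the 10 genes at an adjusted p under 0.05, against 64.5% of the 5840 features tested, so that the share among the 10 is close to that of all features. The called genes were DSN1 (adjusted p = 2.26e-06), NUF2 (1.10e-06), MTW1 (1.12e-04), NDC80 (0.00155), SPC24 (0.00946), NNF1 (0.0135) and MIF2 (0.0207). SPC25 (0.0716), CSE4 (0.206) and NSL1 (0.231) were not called. Without del110_155 replicate 3, NSL1 was also called (adjusted p = 0.0253) and the other verdicts stood. That fit called 67.1% of all features.

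**Figure D2:**
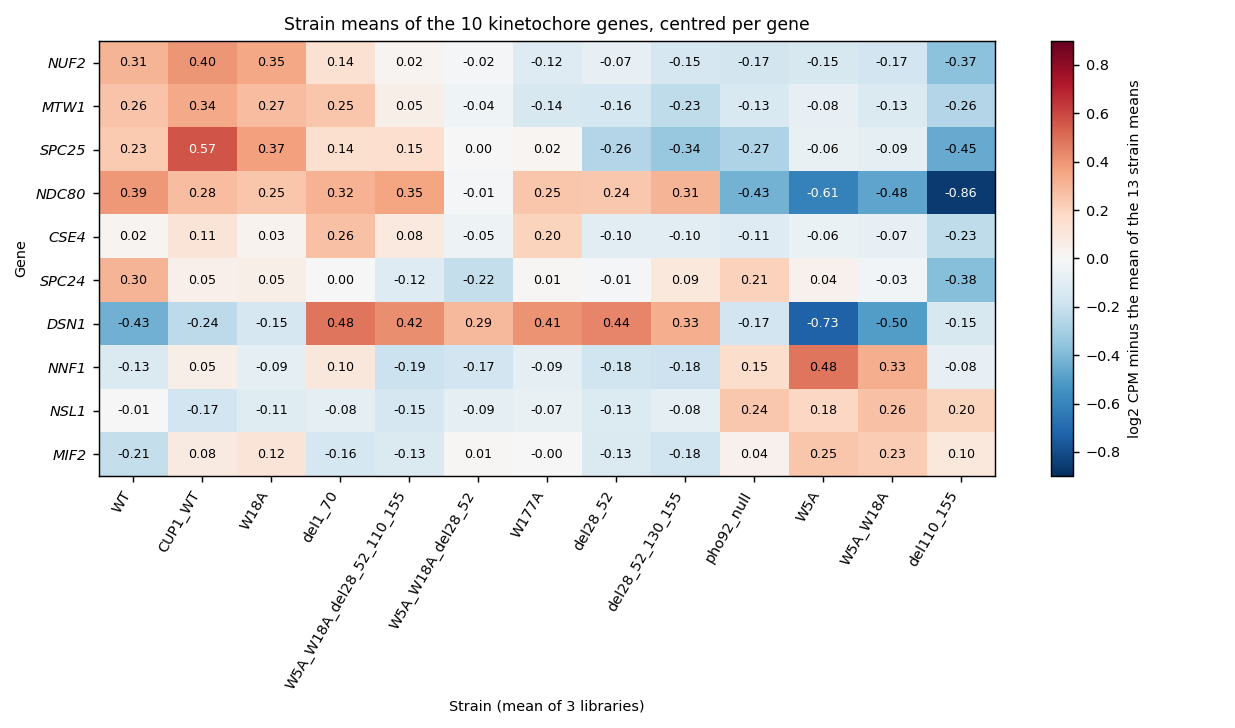
Strain mean of each gene (rows) in each strain (columns), as log2 CPM minus the mean of the 13 strain means of that gene, with rows and columns ordered for display after the values were seen. NUF2, MTW1 and SPC25 are high in WT, CUP1_WT and W18A, NDC80 is low in pho92_null, W5A, W5A_W18A and del110_155, and DSN1 is high in del1_70, del28_52, W177A and the combined deletion strains.

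Among the NDC80 complex genes, NUF2 separated the strains most clearly. NUF2 was at 43.2, 46.7 and 45.6 CPM in the 3 WT libraries, 52.0, 46.4 and 46.1 in CUP1_WT and 46.6, 48.9 and 44.0 in W18A. It was at 33.0, 31.3 and 33.2 CPM in pho92_null, 36.0, 33.4 and 31.7 in W177A, 32.6, 31.0 and 35.5 in W5A and 33.2, 32.8 and 31.3 in W5A_W18A. The 9 libraries of the first set lie above all 12 of the second. The sets compared here and for the genes below were formed after the values were seen, so their separation is a description only. The share of all features that split the strains this way was not counted. In the deletion strains NUF2 was at 36.5, 34.8 and 32.8 CPM in del28_52, 28.4, 35.8 and 34.9 in del28_52_130_155, 32.3, 29.4 and 23.8 in del110_155 and 41.2, 38.5 and 41.1 in del1_70. The combined strains had 34.3, 34.3 and 39.6 CPM (W5A_W18A_del28_52) and 38.8, 36.0 and 36.6 CPM (W5A_W18A_del28_52_110_155). The highest of these deletion libraries, del1_70 replicate 1, is below the lowest library of WT, CUP1_WT and W18A.

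In limma, with 1 fit of all 39 libraries, NUF2 was higher than in pho92_null by 0.47 on the log2 scale in WT (adjusted p = 0.00103), 0.57 in CUP1_WT (5.95e-05), 0.52 in W18A (1.92e-04) and 0.31 in del1_70 (0.0397). The standard error of each is 0.10. The del1_70 call was lost without pho92_null replicate 2 or 3 or del1_70 replicate 1 or 3 (adjusted p up to 0.201), and the other 3 held with any 1 library left out. Against CUP1_WT, NUF2 was lower in 8 of the 10 variant strains, with log2 differences between -0.37 in W5A_W18A_del28_52_110_155 (adjusted p = 0.00855) and -0.76 in del110_155 (9.60e-07). The W177A difference was -0.51 (2.77e-04) and the W5A difference -0.54 (2.25e-04). All 8 calls held with any 1 library left out of the shared fit. In fits of only the strains compared, NUF2 was not called in W5A_W18A_del28_52 or W5A_W18A_del28_52_110_155. Those fits called 0% and 1.23% of all features. Over the 10 genes, 22 of the 45 called differences stayed called in such fits. The del1_70 difference was -0.26 (95% interval -0.46 to -0.06, adjusted p = 0.101), and it passed the threshold without del110_155 replicate 3 (0.0456). W18A differed from CUP1_WT by -0.05 (95% interval -0.25 to 0.15).

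NDC80, the other microtubule-binding subunit, split the strains in another way. It was at 877, 1019.9 and 749.7 CPM in the 3 WT libraries, 835, 986 and 644 in CUP1_WT, 760.0, 846 and 770.3 in W18A and 830.0, 797 and 748 in W177A. The low strains were pho92_null at 641, 395 and 479.9 CPM, W5A at 410.4, 446 and 459, W5A_W18A at 440.2, 529.9 and 472 and del110_155 at 507, 622 and 157. Each library of this second set is below each library of the first, by as little as 641 against 644 CPM, the sets having been formed from these values. The remaining strains had 849, 850.3 and 791 CPM in del1_70, 821, 827 and 717 in del28_52 and 884, 942 and 670.3 in del28_52_130_155. W5A_W18A_del28_52_110_155 had 771, 1035 and 774 CPM, and W5A_W18A_del28_52 had 577, 546 and 919, with 2 libraries among the low ones and 1 among the high ones. W177A, del28_52 and del28_52_130_155, in which NUF2 was low, thus had NDC80 levels in the range of WT and CUP1_WT.

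NDC80 was lower than in CUP1_WT in 3 strains, with log2 differences of -0.89 in W5A (SE 0.29, adjusted p = 0.0172), -0.76 in W5A_W18A (0.0449) and -1.14 in del110_155 (0.00241). Without del110_155 replicate 3 the last difference was -0.53 (adjusted p = 0.0454). With libraries of the comparison left out in turn, the W5A call was lost without CUP1_WT replicate 1 or 2 or W5A replicate 1 (adjusted p up to 0.0734). That of W5A_W18A was lost without CUP1_WT replicate 1 or 2 or W5A_W18A replicate 1, 2 or 3 (adjusted p up to 0.163), and that of del110_155 was not lost in any such fit. In the other 7 variant strains the difference from CUP1_WT ran from -0.29 to 0.07 and was not called. The W177A difference, -0.03, has a 95% interval of -0.63 to 0.56. Against pho92_null, NDC80 was 0.82 higher in WT (adjusted p = 0.0310), a call lost without WT replicate 1 or 2 or pho92_null replicate 2 or 3 (adjusted p up to 0.156). CUP1_WT exceeded pho92_null by 0.71 (0.0523), just outside the threshold.

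The NDC80 verdicts against pho92_null turned on the library that stands apart. With all libraries NDC80 was called against pho92_null in 1 of 12 strains. When del110_155 replicate 3 was left out of the shared fit, its standard error fell from 0.29 to 0.18 and it was called higher in 8 of 12: WT, CUP1_WT (0.71, adjusted p = 0.00287), W177A (0.67, 0.0190), W18A (0.68, 0.00453), del1_70 (0.74, 0.00746), del28_52 (0.67, 0.0212), del28_52_130_155 (0.73, 0.0151) and W5A_W18A_del28_52_110_155 (0.78, 0.00587). This exclusion was chosen after the data were seen. NDC80 in W5A (-0.18), W5A_W18A (-0.05) and W5A_W18A_del28_52 (0.42) was not called against pho92_null in either fit. The del110_155 difference from pho92_null was -0.43 with all libraries and 0.18 without that replicate, and not called in either.

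SPC25, which with Spc24 forms the end of the complex that binds MIND, was the member with the widest spread within strains (median SD of 0.28 on the log2 scale). It was at 106, 80.3 and 57.6 CPM in CUP1_WT replicates 1, 2 and 3, 80.8, 66.7 and 45.6 in WT and 98.4, 68.7 and 48.2 in W18A. It was at 54.7, 37.4 and 41.5 CPM in pho92_null, 47.0, 44.5 and 41.7 in del28_52, 39.1, 46.2 and 40.8 in del28_52_130_155 and 52.0, 36.1 and 31.4 in del110_155. All 3 CUP1_WT libraries are above all 12 of these, which were picked as low after the values were seen. CUP1_WT exceeded pho92_null by 0.84 (SE 0.29, adjusted p = 0.0207), a call lost without pho92_null replicate 2 or 3 or CUP1_WT replicate 1 or 2 (adjusted p up to 0.124). Differences from CUP1_WT were -1.02 in del110_155 (0.00510), -0.91 in del28_52_130_155 (0.0220) and -0.83 in del28_52 (0.0410). The first was lost without CUP1_WT replicate 1 (adjusted p 0.0502), the next without CUP1_WT replicate 1 or 2 or del28_52_130_155 replicate 1 or 3 (adjusted p up to 0.152) and the last without CUP1_WT replicate 1 or 2 or del28_52 replicate 1, 2 or 3 (adjusted p up to 0.223). SPC25 in W5A was -0.63 from CUP1_WT (0.0791), and with the replicate number as a block, for which these strains qualify as paired, its adjusted p was 0.00874.

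SPC24 moved little. It was at 42.3, 42.5 and 43.1 CPM in WT, 35.0, 38.6 and 33.7 in CUP1_WT and 37.8, 41.3 and 40.7 in pho92_null, and its strain means ran from 27.2 CPM (del110_155) to 42.6 CPM (WT). All 3 WT libraries are above every other library, those of pho92_null coming closest. In del110_155 it was at 30.8, 31.6 and 19.0 CPM, -0.43 from CUP1_WT (SE 0.14, adjusted p = 0.0111). That call was lost without CUP1_WT replicate 2 or del110_155 replicate 3 (adjusted p up to 0.200), the value without the latter being -0.19. Against pho92_null the del110_155 value was -0.59 (0.0529), and -0.35 (0.323) without del110_155 replicate 3. For W5A_W18A_del28_52, which qualifies as paired with pho92_null, it was -0.42 (0.139, and 0.0496 with the replicate number as a block).

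**Figure D3:**
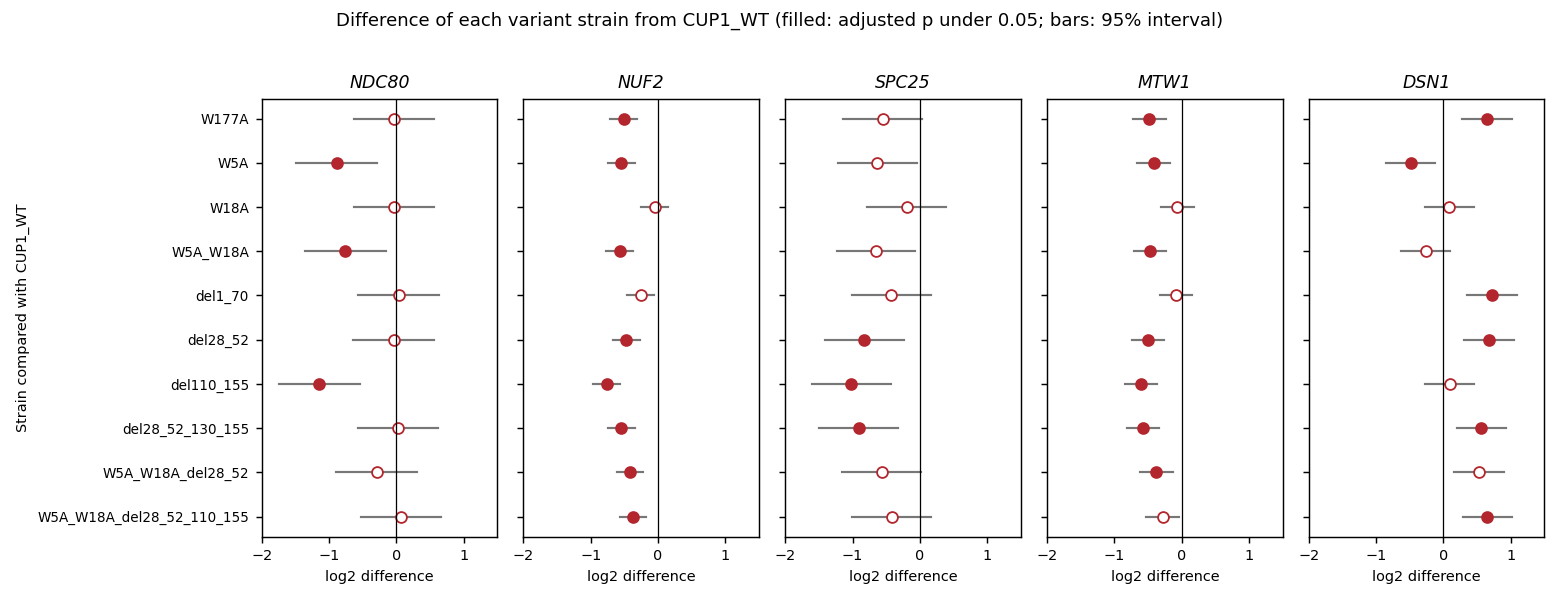
Difference of each variant strain from CUP1_WT (horizontal axes, log2) for 5 genes, 1 panel each, with 95% intervals from the limma fit of all 39 libraries; filled points passed an adjusted p under 0.05 over all features. NUF2 and MTW1 lie below 0 in all 10 strains, NDC80 departs in W5A, W5A_W18A and del110_155, and DSN1 lies above 0 in 8 strains and below it in W5A and W5A_W18A.

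Among the MIND genes, MTW1 followed NUF2. MTW1 was at 55.7, 54.0 and 45.9 CPM in WT, 60.2, 55.7 and 48.6 in CUP1_WT, 61.1, 51.8 and 45.1 in W18A and 57.9, 46.1 and 51.1 in del1_70. It was at 40.9, 37.2 and 39.9 CPM in pho92_null, 41.0, 36.0 and 40.5 in W177A, 43.1, 41.3 and 38.5 in W5A and 37.9, 41.4 and 38.9 in W5A_W18A. The lowest library of the first 4 strains is above the highest of the second 4, the strains having been grouped by these values. MTW1 was at 39.7, 38.1 and 38.0 CPM in del28_52, 34.8, 41.0 and 34.8 in del28_52_130_155 and 40.3, 36.4 and 31.7 in del110_155. The combined strains had 42.2, 38.9 and 45.4 CPM (W5A_W18A_del28_52) and 51.7, 43.9 and 39.8 CPM (W5A_W18A_del28_52_110_155). Of these 15 libraries, 1 (W5A_W18A_del28_52_110_155 replicate 1) reached the range of CUP1_WT.

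MTW1 exceeded its pho92_null level by 0.39 in WT (SE 0.12, adjusted p = 0.0131), 0.47 in CUP1_WT (0.00254), 0.41 in W18A (0.00813) and 0.39 in del1_70 (0.0337). The WT call was lost without WT replicate 1 or 2 or pho92_null replicate 2 (adjusted p up to 0.0986), that of W18A without W18A replicate 1 (adjusted p 0.0700) and that of del1_70 without pho92_null replicate 2 or 3 or del1_70 replicate 1 or 3 (adjusted p up to 0.219). These are the same 4 strains in which NUF2 was called against pho92_null. Against CUP1_WT, MTW1 was lower in 7 variant strains, from -0.38 in W5A_W18A_del28_52 (0.0340) to -0.60 in del110_155 (2.06e-04), with -0.48 in W177A (0.00387). The call in W5A_W18A_del28_52 was lost without CUP1_WT replicate 1 or 2 or W5A_W18A_del28_52 replicate 1 or 2 (adjusted p up to 0.173), and the other 6 held with any 1 library left out. W5A_W18A_del28_52_110_155 differed by -0.28 (0.116, and 0.0455 with the replicate number as a block, for which these strains qualify). The del1_70 difference of -0.09 has a 95% interval of -0.33 to 0.15.

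DSN1, whose protein carries the Aurora B sites that govern MIND binding to Mif2, did not follow MTW1. DSN1 was at 59.2, 65.2 and 59.3 CPM in WT, 73.8, 62.7 and 84.1 in pho92_null and 77.4, 76.1 and 58.1 in CUP1_WT, and the ranges of these 3 strains overlap. It was higher in W177A at 96.8, 107 and 126 CPM, del1_70 at 129, 108 and 109.9, del28_52 at 115, 106 and 114 and del28_52_130_155 at 97.4, 114 and 99.7. All 12 of those libraries, grouped as high after the values were seen, are above all 9 of the first 3 strains. It was also above them in W5A_W18A_del28_52 (97.1, 92.0 and 115 CPM) and W5A_W18A_del28_52_110_155 (97.8, 129 and 106 CPM). W18A (73.2, 78.3 and 71.7 CPM) overlapped CUP1_WT. All W5A libraries (41.7, 51.7 and 57.4 CPM) were below WT, and those of W5A_W18A (55.6, 54.7 and 64.8 CPM) were below or within its range. The del110_155 libraries were spread over 78.5, 107 and 49.01 CPM.

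Against CUP1_WT, DSN1 was higher by 0.72 in del1_70 (SE 0.18, adjusted p = 0.00829), 0.68 in del28_52 (0.00883), 0.65 in W5A_W18A_del28_52_110_155 (0.0131), 0.64 in W177A (0.0108) and 0.56 in del28_52_130_155 (0.0241). All 5 calls were lost without CUP1_WT replicate 3, the lowest CUP1_WT library, with adjusted p from 0.0613 (del28_52) to 0.142 (del28_52_130_155). Those of W177A, del28_52_130_155 and W5A_W18A_del28_52_110_155 were also lost without W177A replicate 3, del28_52_130_155 replicate 1 or 2, and W5A_W18A_del28_52_110_155 replicate 2, each with an adjusted p of at most 0.142. In W5A_W18A_del28_52 the difference was 0.53 (0.0523), and without del110_155 replicate 3 its adjusted p was 0.0109. W5A went the other way, at -0.49 (0.0317), lost without CUP1_WT replicate 1 or 2 or W5A replicate 1 or 2 (adjusted p up to 0.160).

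Against pho92_null, DSN1 was higher by 0.66 in del1_70 (adjusted p = 0.0208), 0.61 in del28_52 (0.0463) and 0.59 in W5A_W18A_del28_52_110_155 (0.0323), and lower in W5A, at -0.55 (0.0365). The first was lost without pho92_null replicate 2 or del1_70 replicate 1 (adjusted p up to 0.187) and the next without pho92_null replicate 2 or 3 or del28_52 replicate 1, 2 or 3 (adjusted p up to 0.335). The third was lost without pho92_null replicate 2 or W5A_W18A_del28_52_110_155 replicate 1 or 2 (adjusted p up to 0.202) and the W5A call without pho92_null replicate 1 or 3 or W5A replicate 1 or 2 (adjusted p up to 0.211). Without del110_155 replicate 3, W177A (0.58, adjusted p = 0.0117) and del28_52_130_155 (0.50, 0.0252) were called as well. CUP1_WT, with the unaltered protein, was -0.06 from pho92_null (95% interval -0.43 to 0.31).

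NNF1 and NSL1, the remaining MIND subunits, gave 1 call between them. NNF1 was at 53.9, 44.4 and 44.6 CPM in W5A and 28.4, 35.3 and 43.1 in CUP1_WT, 0.44 apart (SE 0.17, adjusted p = 0.0469). The call was lost without CUP1_WT replicate 1 or 2 or W5A replicate 1, 2 or 3 (adjusted p up to 0.358) and with median-of-ratios (RLE) size factors. The 3 W5A libraries were above the 3 of CUP1_WT, of which replicate 3 came closest. NSL1 was lowest in CUP1_WT, at 17.9, 17.6 and 19.6 CPM, against 20.2, 26.8 and 27.0 in pho92_null, 21.4, 22.2 and 27.4 in W5A and 24.6, 26.0 and 24.0 in W5A_W18A. All 9 of those libraries exceed all 3 of CUP1_WT, but no NSL1 difference was called: CUP1_WT was -0.41 from pho92_null (0.0751) and W5A_W18A 0.44 from CUP1_WT (0.0689). In W5A, paired with CUP1_WT by replicate number, the difference of 0.36 (0.129) had an adjusted p of 0.0496 with that number as a block. Without del110_155 replicate 3, whose 39.1 CPM was the highest NSL1 value, CUP1_WT against pho92_null (0.0126), W5A against CUP1_WT (0.0284) and W5A_W18A against CUP1_WT (0.0105) passed, as did W18A (0.0321) and W5A_W18A_del28_52_110_155 (0.0374) against pho92_null, both lower.

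CSE4 and MIF2, the centromeric members, were called in no comparison between strains. CSE4 was at 89.4, 84.3 and 69.1 CPM in CUP1_WT, 80.4, 62.1 and 65.0 in pho92_null and 106, 80.8 and 83.1 in del1_70, its highest strain, and 77.9, 66.0 and 49.6 in del110_155, its lowest. MIF2 was at 29.2, 31.3 and 38.0 CPM in WT, 35.8, 42.1 and 42.5 in CUP1_WT and 44.2, 47.1 and 43.7 in W5A, its highest strain. CSE4 in CUP1_WT overlapped each of the other 3 strains, while all del1_70 libraries were above those of pho92_null and del110_155. For MIF2, all 3 W5A libraries exceed all 3 of WT and of CUP1_WT. CSE4 differed from CUP1_WT by -0.34 in del110_155 (adjusted p = 0.0727, and 0.0194 with the replicate number as a block, for which these strains qualify as paired). Without del110_155 replicate 3 that difference was -0.17 (adjusted p = 0.450). NSL1 in the same comparison was at 0.37 (not called, and adjusted p = 0.0364 with the block), but at 0.02 (adjusted p = 0.948) without del110_155 replicate 3. CUP1_WT exceeded WT in MIF2 by 0.29 (95% interval 0.03 to 0.56, adjusted p = 0.376).

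Several members also differed between replicate numbers. With strain in the model, 5 of the 10 genes were called for differences among the replicate numbers (SPC25, MTW1, NSL1, CSE4 and MIF2), against 48.7% of all features. Over the 13 strains replicate 3 was lower than replicate 1 by 0.55 in SPC25 (adjusted p = 1.08e-04), by 0.26 in CSE4 (0.00231) and by 0.16 in MTW1 (0.0217), and higher by 0.28 in NSL1 (0.00402) and 0.23 in MIF2 (7.40e-04). NUF2, SPC24 and DSN1 had adjusted p of 0.714 to 0.783 in this test, NNF1 0.366 and NDC80 0.185. The labels do not say what the numbers share.

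Read by comparison, the strains with unaltered Pho92 gave calls among the 10 genes at a rate near the background. In WT against pho92_null, 3 of 10 were called, NDC80, NUF2 and MTW1, all higher (1 to 4 with any 1 library left out), against 33.2% of all features. CUP1_WT against pho92_null called 3 of 10, NUF2, SPC25 and MTW1, all higher (2 to 5; 5 without del110_155 replicate 3, where 45.4% of features were called), against 39.9%. Both shares are near the background and under it. For the ranges with 1 library left out, here and below, the share of all features was not recorded, except without del110_155 replicate 3. With the replicate number as a block, 5 of 10 were called in each, against 43.2% and 48.9% of features. The median over the 10 was 0.12 in WT and 0.14 in CUP1_WT, against -0.04 and -0.03 over all features. Both comparisons share the pho92_null libraries. CUP1_WT against WT called 0 of 10 in limma, against 1.66% of features; 1 had an unadjusted p under 0.05, and limma with voom weights also called 0.

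Against CUP1_WT, the variant strains shared the 3 CUP1_WT libraries and are given side by side. W177A called 3 of 10 (NUF2 and MTW1 lower, DSN1 higher), against 20.5% of features. W5A called 5 of 10, 4 of them lower (2 to 6 with any 1 library left out; 7 with the replicate number as a block, where 47.4% of features were called), against 39.0%. W5A_W18A called 3 of 10, NDC80, NUF2 and MTW1, against 33.2%. W18A called 0 of 10 against 0.00% of features in limma, with 0 at an unadjusted p under 0.05 and 0 with voom weights. Of the deletions, del28_52 called 4 of 10 against 19.3% of features (3 with any 1 library left out). The same 4 were called in del28_52_130_155 against 21.6% (2 to 3), and DSN1 alone in del1_70 against 9.26% (0 to 1). In del110_155, 5 of 10 were called, all lower, which include all 4 NDC80 complex genes and MTW1 (against 45.8%; 4 without its replicate 3, against 33.3%, and 7 with the replicate number as a block, against 52.5%). W5A_W18A_del28_52 called 2 of 10, NUF2 and MTW1 (1 to 2; against 11.5%), and W5A_W18A_del28_52_110_155 called NUF2 and DSN1 (1 to 3; 3 with the block, against 18.9%; without it, against 13.0%). The median difference over the 10 ran from -0.39 in del110_155 (-0.18 without its replicate 3, which leaves W5A lowest at -0.30) to -0.01 in del1_70, while that over all features ran from -0.03 to 0.03 over the 10 strains.

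Against pho92_null, which again enters every comparison, del1_70 called 3 of 10 (0 to 5 with any 1 library left out), NUF2, MTW1 and DSN1, all higher, against 10.6% of features. W18A called 2, NUF2 and MTW1 (1 to 4), against 38.4%. DSN1 was the 1 gene called in W5A (0 to 1), against 14.6%, in del28_52 (0 to 1), against 4.50%, and in W5A_W18A_del28_52_110_155 (0 to 2), against 11.7%. Of the 10 genes, 0 were called by limma in W177A (background 4.83%), W5A_W18A (10.5%), del110_155 (0.205%), del28_52_130_155 (3.42%) and W5A_W18A_del28_52 (0.925%; 1, SPC24, with the replicate number as a block, against 8.66%). At an unadjusted p under 0.05 these 5 strains had 2, 0, 2, 2 and 2 members, and voom weights called 0 in each.

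Whether 2 changes to Pho92 added up was tested as an interaction on the log2 scale. For W5A with W18A, 0 of 10 genes were called by limma, against 0.00% of features, with 0 at an unadjusted p under 0.05 and 0 with voom weights. For the deletion of 28 to 52 in the W5A_W18A protein, NUF2 (0.62, SE 0.14, adjusted p = 0.0109) and MTW1 (0.60, SE 0.17, 0.0246) departed from the sum, 2 of 10 against 12.6% of features. Both stood higher in the combined strain than the sum of the separate differences from CUP1_WT. For NUF2 these were -0.57 and -0.47, while the combined strain was at -0.42. CUP1_WT exceeded pho92_null by 0.57 in NUF2, so each separate strain was already near the pho92_null level. The NUF2 call was lost without CUP1_WT replicate 1 (adjusted p = 0.0659). That of MTW1 was lost without CUP1_WT replicate 1 or 2, W5A_W18A replicate 1, del28_52 replicate 3 or W5A_W18A_del28_52 replicate 3 (up to 0.114).

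The members did not vary as 1 unit over the strains. Of the 45 pairs of members, 22 had a positive Pearson r over the 13 strain means of log2 CPM. These means share libraries within a strain and give a description only. The highest r were between NUF2 and MTW1 (0.96; Spearman's rho 0.87), SPC25 and MTW1 (0.93; 0.93) and NUF2 and SPC25 (0.92; 0.92). NDC80 had r = 0.69 with NUF2 (rho 0.71), and 0.55 without the 2 strains with the most extreme NDC80. NDC80 and NSL1 ran in opposite directions (r = -0.89, rho -0.55), as did NNF1 and DSN1 (-0.69, -0.58), the latter at -0.30 without the 2 strains with the most extreme NNF1. For the other 4 pairs named, r without the 2 strains farthest from the median of the first gene was 0.93, 0.90, 0.85 and -0.89 in the order given. NDC80 and MIF2 were opposed as well (r = -0.72, rho -0.79, and r = -0.68 without the 2 strains with the most extreme NDC80).

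The levels of several members also moved with the meiotic stage markers, some in the opposite direction. The 10 middle meiotic genes, which include NDT80, summed to 5113 to 25879 CPM over the CUP1_WT libraries and 5387 to 21219 in WT, against 508 to 4015 in pho92_null, 1008 to 7015 in W177A, 427 to 1435 in W5A, 571 to 955 in W5A_W18A and 138 to 914 in del110_155. The 10 early meiotic genes, which include IME1 and IME2, summed to 17375 to 20764 CPM in CUP1_WT, 19949 to 21608 in WT, 13440 to 20293 in pho92_null, 19202 to 22691 in W177A, 12342 to 13198 in W5A and 4581 to 17900 in del110_155. No gene of either list was at 0 in every library. Over the 13 strain means NDC80 had r = 0.96 with the early sum (rho 0.81; 0.90 without del110_155 and W5A, the 2 strains farthest from the median) and 0.93 with the middle sum (rho 0.85; 0.85). NUF2 had 0.52 with the early sum (rho 0.38; 0.22) and 0.84 with the middle sum (rho 0.93; 0.80). NSL1 had -0.88 with the middle sum (rho -0.69; -0.85), and DSN1 0.43 (rho 0.16; 0.22). MIF2 had -0.79 with the early sum (rho -0.82, and -0.82 without those 2 strains). MTW1 had 0.38 with the early sum (rho 0.04) and 0.74 with the middle sum (rho 0.79). SPC24 followed neither closely, at 0.49 and 0.33 (0.19 and -0.03 without those 2 strains). The part of meiotic stage in the differences between strains was not tested.

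**Figure D4:**
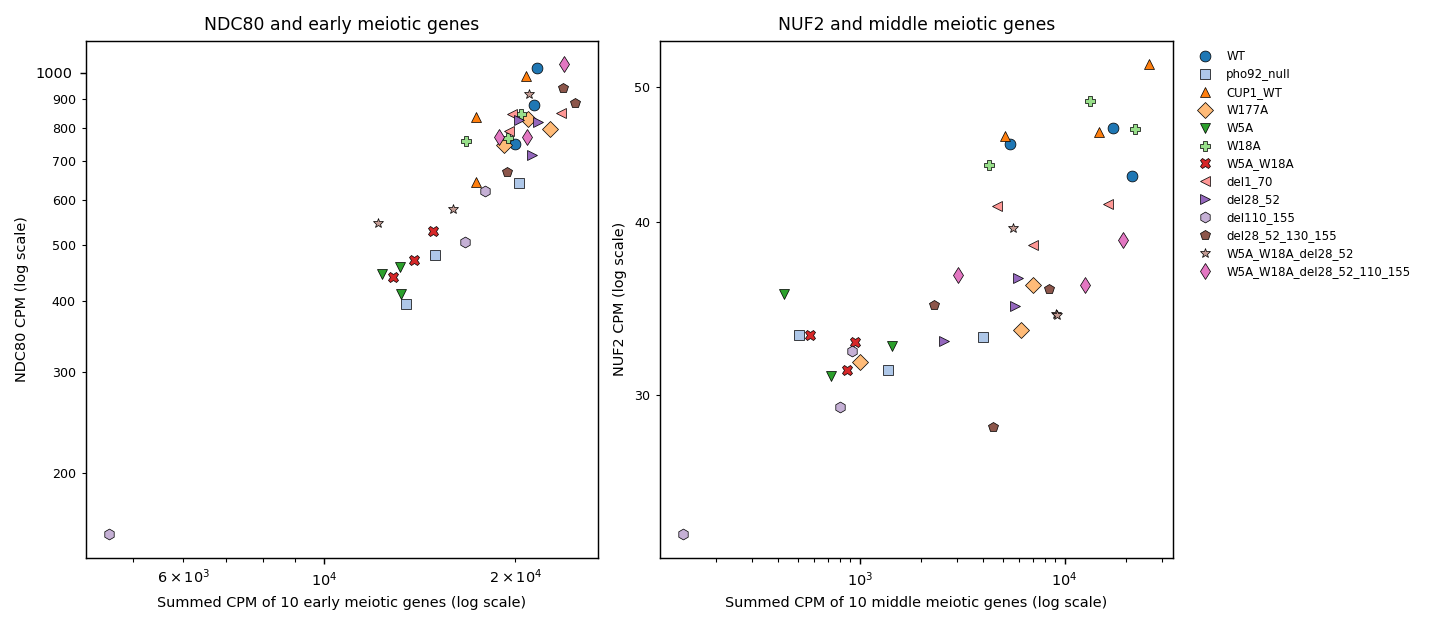
NDC80 against the summed level of 10 early meiotic genes (left) and NUF2 against that of 10 middle meiotic genes (right), both in CPM on log axes, 1 point per library with 1 symbol per strain. NDC80 is low where the early sum is low, from 157 CPM in del110_155 replicate 3 at 4581 CPM. NUF2 lies at 31.7 to 36.0 CPM in W177A, at middle sums of 1008 to 7015 CPM. It lies at 43.2 to 46.7 CPM in WT (5387 to 21219) and 46.1 to 52.0 CPM in CUP1_WT (5113 to 25879). The part of meiotic stage was not tested.

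Other markers gave the following. IME1 strain means ran from 2779 CPM in del110_155 to 4823 CPM in del28_52_130_155, IME2 from 2301 CPM in W5A to 6044 CPM in WT, and NDT80 from 147 CPM in W5A to 1205 CPM in WT. The 10 haploid markers, checked because the strains are labelled diploid, summed to 165 to 399 CPM over the CUP1_WT libraries, 165 to 335 in WT and 120 to 189 in pho92_null, with 8 of 10 called between CUP1_WT and pho92_null (6 higher, 2 lower; 39.9% of all features were called) and none at 0 in every library. Among them, the pheromone precursor gene MFA1 stood at 0.925 CPM in CUP1_WT against 0.849 in pho92_null, and MFA2 at 0.554 against 0.441. These low levels make up little of the sums above and do not stand for the list, whose other markers are not given singly. Markers of mitotic division summed to 110 to 229 CPM over all libraries, with 3 of 6 called in the same comparison (1 higher, 2 lower; the same background). Their part in the kinetochore differences was not tested.

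Features whose strain means ran most like those of a member were sought among 5493 features that are no members and average at least 50 counts. Nearest to NDC80 were SRS2 and SGS1, both DNA helicases, AFR1, CIK1, a partner of the kinesin Kar3, and MPS2, a spindle pole body protein, with r of 0.98 to 0.99 over 13 strains. SCS2, SRB5, TSC10, YPT10 and GPI11 were nearest to MTW1, with r of 0.95 to 0.98 over the same strains. DSN1, added after its values were seen, had TFB2, YER079W, YMR244W, SPT5 and BDP1, with r of 0.95 to 0.96.

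The other kinetochore genes moved in both directions at a rate near the background. Of 48 genes in 7 further lists, 11 were higher and 10 lower in CUP1_WT than in pho92_null, against 19.2% and 20.8% of all features. All 5 monopolin and shugoshin genes, which hold sister kinetochores and cohesion together in meiosis I, were higher (median 1.66), among them MAM1 (1.96, SE 0.55, adjusted p = 0.00675), SGO1 (1.82, SE 0.42, 0.00144) and HRR25 (1.66, SE 0.43, 0.00353). Of the inner kinetochore CTF19 complex, 1 of 15 was higher and 6 were lower (median -0.04), among them CTF19 (-0.78, SE 0.25, 0.0159), CTF3 (-0.73, SE 0.11, 1.90e-05) and MCM22 (-0.67, SE 0.14, 4.16e-04). The DAM1 complex, the ring that couples NDC80 to microtubule ends, had 2 of 10 higher and 1 lower (median 0.18), the CBF3 and centromere-binding list 3 of 6 lower (median -0.33), and the spindle checkpoint list 3 of 6 higher (median 0.31). The medians of the 2 KNL1 complex genes and of the 4 Aurora B complex genes were 0.16 and 0.24, and none of these 6 was called. The median over all features was -0.03.

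In W177A against CUP1_WT, 5 of the 48 were higher and 5 lower, against 13.5% and 7.04% of all features. CTF3 (0.77, SE 0.11, adjusted p = 1.36e-05), MCM22 (0.41, SE 0.14, 0.0325) and KRE28 of the KNL1 complex (0.37, SE 0.12, 0.0334) rose, while SGO1 (-1.30, SE 0.42, 0.0285), HRR25 (-1.20, SE 0.43, 0.0450) and the monopolin subunit gene CSM1 (-0.64, SE 0.19, 0.0154) fell. In del110_155 against CUP1_WT, 5 were higher and 19 lower, against 22.3% and 23.5%. Of the 10 early meiotic genes 4 were lower there, and of the 10 middle meiotic genes all 10. Without del110_155 replicate 3, 3 of the 48 were higher and 10 lower, against 923 and 1020 of 5837 features, 1 early gene was higher and 1 lower, and all 10 middle genes were lower.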

How the data were processed

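Poly(A), strand-specific, paired-end libraries were counted per gene by the authors. STAR 2.7.10a, RSEM 1.3.1 and DESeq2 1.48.1 are named in the submitters' processing notes, with no roles; neither a genome build nor a strand setting is given in the sources used here. The deposited table holds whole-number counts for 6186 features below 46 lines of headings and annotations. Those lines share the columns and include the authors' component scores, so a column as deposited is not a plain count column. They were left out, and the whole-number counts below them were analysed. edgeR's count test was not run.

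TMM factors (trimmed mean of M-values) computed from the table scaled the library sizes. The filter kept 5840 features: those with a CPM worth 10 counts in the median library in 3 or more libraries and a total of 15 or more. Their log2 CPM (prior count 2) were fitted in limma 3.58.1 (R 4.3.3) with 13 strain means over 39 libraries and a trended prior variance. Benjamini-Hochberg adjustment ran over all 5840, and an adjusted p under 0.05 was called. Intervals are at 95% and unadjusted. The code was tested on simulated data.

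Libraries were grouped by title. Replicate numbers were taken to pair 2 strains where the deviations of all 3 same-numbered pairs of libraries correlated above 0.1. This held in 9 of 23 comparisons, and the blocked result is given beside the main one there where it changed a call. The block left the count of members unchanged in CUP1_WT against WT, W18A and del28_52 against CUP1_WT, and W5A and del28_52 against pho92_null. Blocked counts are also given for some comparisons that did not qualify, among them WT and CUP1_WT against pho92_null. Over all strains the mean correlation was 0.286 for same and -0.139 for different numbers.

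The members, the lists (other kinetochore complexes, early and middle meiotic genes, and haploid and mitotic markers) and the tests were chosen with earlier results of these data known. Named beside the members were PHO92, IME1, IME2 and NDT80, the 3 other kinetochore genes with the greatest called rise and fall in CUP1_WT against pho92_null and W177A against CUP1_WT, and the 5 features most like NDC80 and MTW1 over strain means. The alternatives were RLE size factors, every feature kept, a prior count of 0.5, voom weights, a block for replicate number, fits restricted to the strains of a comparison, and leaving out each library; leaving del110_155 replicate 3 out of the shared fit was added after the data were seen. Promoters were read from RefSeq R64.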

Additional observations from a re-analysis of the deposited data

Results flagged for a closer look

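NUF2 in W5A_W18A_del28_52 stood 0.62 (log2) above the sum of the separate differences of W5A_W18A and del28_52 from CUP1_WT. By a test of the difference itself, NUF2 changed differently with the deletion of 28 to 52 in the substituted and unsubstituted protein. Mean NUF2 was 32.5 CPM in pho92_null, 32.4 in W5A_W18A and 34.7 in del28_52, so both separate strains already lay near the pho92_null mean. Mean PHO92 was 14852 CPM in W5A_W18A and 7866 in W5A_W18A_del28_52. The part of either in this departure was not tested. MTW1 gave the same kind of difference, 0.60. Their tests and the libraries they rest on stand in the report.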

How the results depend on the processing

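Of the 45 member differences called, 0 reversed under any alternative run. All 45 stayed called with a prior count of 0.5 and with the replicate block, 44 with RLE size factors, 43 with voom weights, 42 without the low-count filter and 22 in fits of only the strains compared, where fewer samples estimate the spread; 200 of 282 fits without 1 library kept their call.

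The larger changes in counts of members called are given below, and most smaller ones are left out. Against CUP1_WT, leaving out 1 library of a comparison gave 3 for del28_52, which had 4 as reported. It gave 2 to 4 for W5A_W18A, 2 to 3 for W177A and 4 to 7 for del110_155. Voom weights and no filter each gave 0 for del28_52 against pho92_null. With the replicate block, counts were 5 for WT and CUP1_WT against pho92_null, 5 for W5A_W18A and 4 for W5A_W18A_del28_52 against CUP1_WT, and, against pho92_null, 1 for W177A, 4 for W18A, 5 for del1_70, 1 for del110_155, 1 for W5A_W18A_del28_52 and 2 for W5A_W18A_del28_52_110_155; the strain F-test called 10 of 10, against 76.2% of features. The block called 43.2% and 48.9% of features for WT and CUP1_WT against pho92_null, 43.5% and 21.1% for those 2 variants against CUP1_WT, and 12.1%, 47.0%, 24.9%, 2.29%, 8.66% and 28.1% for the 6 against pho92_null, in the order given. Fits of only the strains compared gave 1 for WT and for CUP1_WT against pho92_null, 3 for W5A, 1 for del110_155 and 0 for del1_70, W5A_W18A_del28_52 and W5A_W18A_del28_52_110_155 against CUP1_WT, and, against pho92_null, 1 for W18A and 0 for W5A, del1_70, del28_52 and W5A_W18A_del28_52_110_155; those fits called 7.45%, 16.5%, 29.3%, 8.35%, 0%, 0%, 1.23%, 14.8%, 2.03%, 0.0175%, 0.0175% and 0.0176% of features, in the order given. With del110_155 replicate 3 out of the shared fit, counts were 5 for CUP1_WT against pho92_null, 2 for del1_70 against CUP1_WT and, against pho92_null, 2 for W177A, 4 for W18A, 2 for del28_52, 2 for del28_52_130_155, 1 for W5A_W18A_del28_52 and 4 for W5A_W18A_del28_52_110_155, against 45.4%, 11.4%, 11.4%, 43.3%, 12.8%, 11.0%, 1.66% and 20.9% of features. Leaving out 1 library of a comparison gave 1 to 4 (WT), 2 to 5 (CUP1_WT), 0 to 1 (W5A), 1 to 4 (W18A), 0 to 5 (del1_70), 0 to 1 (del28_52), 0 to 1 (del110_155) and 0 to 2 (W5A_W18A_del28_52_110_155) against pho92_null; 2 to 6 (W5A), 0 to 1 (del1_70), 2 to 3 (del28_52_130_155), 1 to 2 (W5A_W18A_del28_52) and 1 to 3 (W5A_W18A_del28_52_110_155) against CUP1_WT; and 0 to 2 for the interaction of W5A_W18A with the deletion of 28 to 52. Shares of all features were not recorded for the fits with voom weights, without the filter or without 1 library, del110_155 replicate 3 aside. The counts from those fits therefore cannot separate a change in the members from one in the whole table. The causes were not tested.

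RLE size factors moved the median of all features by at most 0.06. Each strain has 3 libraries, and counts were at least 275 for each gene in each library. edgeR was not run, and isoforms of NDC80 were not analysed here.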

Other observations

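In a longer window of 1000 bases before the start codon, chosen after the data were seen, CACAAA or its complement was found in 6 of the 10 kinetochore genes (51.6% of 5996 genes of the assembly) and GGCGGC or its complement in NNF1 and SPC25 (18.3%). For NUF2, whose 300-base window held none of the motifs searched, the CACAAA match lay 674 bases before the start.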
